A study of Homo sapiens with 12 samples.

Results

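Long intergenic non-coding RNAs (lincRNAs) with a substantial level in PC3 or VCaP prostate cancer cells are described here, with their response to knockdown of FOXA1. The members were all genes that the deposited tables type as lincRNA and whose mean level, as counts divided by the library total and scaled to counts per 1e6 (CPM), was at least 5 over the 6 PC3 libraries or over the 6 VCaP libraries. Genes with names starting SNHG were left out, as were MALAT1, NEAT1, PCA3, PCAT1, PCGEM1, DRAIC, PVT1 and SCHLAP1. The rule gave 252 of the 7580 lincRNA genes, among 60106 genes in all, where 260 would have passed without the exclusions by name. Of the members, 158 reached the threshold in PC3 and 137 in VCaP: 43 in both lines, 115 in PC3 alone and 94 in VCaP alone.

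The study sequenced RNA from 12 libraries, with 3 replicates of each of 4 groups. PC3 cells, grown in RPMI, received 20 nM of an siRNA against FOXA1 (siFOXA1) or a non-targeting siRNA (NSI) for 72 h, and their libraries were made with a stranded mRNA kit. VCaP cells, grown in DMEM, received 40 nM of either siRNA for 72 h, and their libraries were made with a total RNA kit. PC3 and VCaP are established human prostate cancer lines. The line, the siRNA dose, the medium, the library kit and the use of strand in counting (PC3 without strand, VCaP with it) cannot be told apart in any contrast between the lines. Nothing in the labels says that replicates were separate cultures, so p-values measure only the spread between these libraries, which may be technical.

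LincRNAs are transcribed from their own promoters between protein-coding genes, are often spliced and polyadenylated, and tend to be more restricted to particular cell types than mRNAs. Some act in the nucleus on chromatin or on neighbouring genes, some bind proteins or microRNAs in the cytoplasm, and others are the precursors of microRNAs. FOXA1 is a forkhead pioneer factor that opens chromatin at enhancers in luminal prostate cells, where other factors then bind.

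Library totals were 123140099 to 188226483 counts in PC3 and 48187047 to 59839211 in VCaP, and the members held 0.383% to 0.596% of PC3 counts and 0.844% to 0.980% of VCaP counts. FOXA1 itself stood at 296, 247 and 261 CPM under NSI against 165, 184 and 164 CPM under siFOXA1 in PC3, a log2 fold change of -0.65 ± 0.10 (SE; edgeR adjusted p = 0.00222) in edgeR's quasi-likelihood test, from which all fold changes and adjusted p-values below come. In VCaP it stood at 458, 468 and 544 CPM under NSI against 85.2, 73.6 and 83.1 CPM under siFOXA1, a log2 fold change of -2.60 ± 0.09 (SE; edgeR adjusted p = 1.84e-07). Both lines showed the knockdown in every library, and it was deeper in VCaP, by a difference of -1.93 ± 0.15 (SE; edgeR adjusted p = 3.12e-07). The luminal prostate gene TMPRSS2 read 92.7 to 123 CPM in VCaP and at most 0.421 CPM in PC3, VIM read 719 to 883 CPM in PC3 and at most 0.835 CPM in VCaP, and the leukocyte markers PTPRC and CD3E were at most 0.121 CPM in every library. Of the luminal genes, HOXB13 (262 to 362 CPM in PC3, 210 to 275 in VCaP) and KRT18 (180 to 324 CPM in PC3, 77.4 to 137 in VCaP) were not higher in VCaP. LYZ, another leukocyte marker, was at most 0.772 CPM, and CD14 read 0.625 to 0.770 CPM under NSI and 2.23 to 2.98 CPM under siFOXA1 in VCaP and at most 0.338 CPM in PC3; its part in the results was not tested. In bulk RNA, fewer cells with a transcript and less of it per cell cannot be told apart.

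Most members reached the threshold in 1 line only, and the line cannot be told apart from the kit and the use of strand in counting. At or above the threshold, PC3 levels ran from 5.01 to 561 CPM with a median of 11.7, and VCaP levels from 5.00 to 4187 CPM with a median of 10.8, and only 14 members in PC3 and 13 in VCaP reached 50 CPM. The 115 members at the threshold in PC3 alone had a median of 0.268 CPM in VCaP, where 75 of them stood under 1 CPM and 46 under 0.1 CPM. The 94 at the threshold in VCaP alone had a median of 1.47 CPM in PC3, where 42 stood under 1 CPM and 22 under 0.1 CPM. The members were chosen by these levels, which are therefore a description and carry no test. Just inside the threshold stood C21orf67 at 5.01 and ENSG00000250899.3_4 at 5.01 CPM in PC3, and RP11-495L19.1 at 5.00 and CCDC92B, listed by an older clone name, at 5.01 CPM in VCaP. Just outside it stood RP11-150O12.1 at 4.95 and RP11-256I9.2 at 4.98 CPM in PC3, and AC004158.2 at 4.88 and RP1-71L16.2, a member through PC3, at 4.86 CPM in VCaP.

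**Figure D1:**
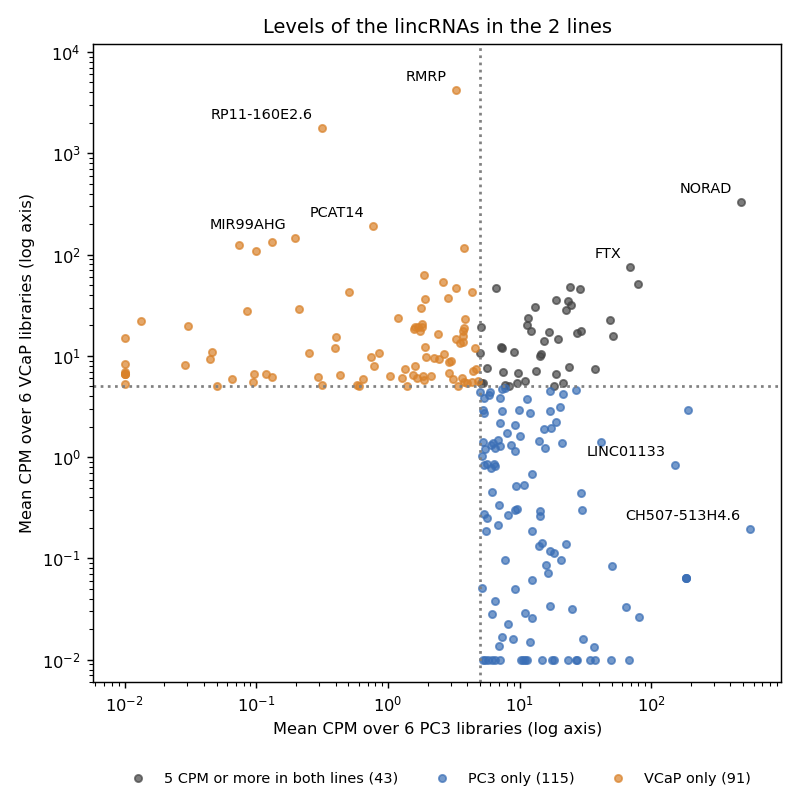
Mean CPM of each member over the 6 PC3 libraries (x axis, log scale) and the 6 VCaP libraries (y axis, log scale), with dashed lines at the threshold of 5 CPM and values under 0.01 drawn at 0.01; the 3 members on the Y chromosome are not drawn. Points for members at the threshold in 1 line spread down to the floor of the other line, where 46 of the 115 PC3 members stand under 0.1 CPM in VCaP.

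The annotation of the members varied. A single exon block made up 70 of them, the median exon length was 2407.5 bases, 21 have a current symbol ending in DT (divergent transcript), and 14 lie on unplaced contigs. At least 10% of the exon bases were shared with another gene in 75 members, 49 of them with a gene on the other strand. That overlap with the other strand was found in 28.7% of the members at the threshold in PC3 alone, 9.57% of those in VCaP alone and 16.3% of those in both. PC3 reads were counted without strand, so for these members reads of the gene and of its overlapping partner cannot be told apart in PC3.

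Per kilobase of exon, the highest members in VCaP were short structured RNAs that the annotation types as lincRNA. RMRP, the RNA of the mitochondrial RNA processing endoribonuclease, averaged 4187 CPM in VCaP against 3.29 CPM in PC3, and RP11-160E2.6 averaged 1782 against 0.317 CPM. The minor-spliceosome RNAs RNU11 and RNU12 averaged 133 and 124 CPM in VCaP, the Cajal-body RNA SCARNA2 averaged 108 CPM, and CH17-373J23.1 averaged 28.9 CPM. None of these 6 passed the test in either line, and their VCaP log2 fold changes ran from -0.29 for RP11-160E2.6 to 0.11 for RNU12, with 0.01 for RMRP, -0.05 for RNU11, 0.07 for SCARNA2 and -0.07 for CH17-373J23.1. Leaving out single libraries turned the sign in VCaP for RMRP, RNU11 and SCARNA2. In PC3, at means of 3.29 CPM or less, all 6 log2 fold changes were negative, from -1.04 for RMRP to -0.15 for CH17-373J23.1. The kits differed between the lines in whether short RNAs without a poly(A) tail were kept, so the gap in level between the lines cannot be told apart from the kit.

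In PC3 the highest members per kilobase lay on the contig GL000220.1. CH507-513H4.6 stood at 1318, 813 and 283 CPM under NSI against 411, 368 and 208 CPM under siFOXA1, so the NSI libraries differed among themselves more than the groups did and overlapped the siFOXA1 libraries. Its log2 fold change was -1.29 ± 0.48 (SE; edgeR adjusted p = 0.0762). It passed the test without NSI replicate 3 (-1.70) and with the replicate number as a block (-1.09, adjusted p = 0.00088). It also passed in the fit over all 12 libraries (-1.28, adjusted p = 0.0166) and without the filter for low counts (-1.32, adjusted p = 0.00115). The result was unchanged in 10 of 14 alternatives. CH507-513H4.3, CH507-513H4.4 and CH507-513H4.5 share exons and had identical counts, with 1 common value of -1.28 on the log2 scale. The contig members held 0.0565% to 0.256% of NSI counts and 0.0435% to 0.0856% of siFOXA1 counts in PC3. Over all contigs, 8 of the 10 members tested in VCaP passed the test and all 8 were lower, beside 45.8% of all genes called and 23.3% lower. Most of the 8 are genes of GL000195.1 that share exons with each other, so they are not 8 separate measurements. In PC3, 1 of the 14 passed, beside 27% of all genes.

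RNA of 51 members rose and RNA of 35 fell in PC3 after FOXA1 knockdown. That is 86 of the 236 members tested, 16 having too few counts, and compares with 27% of all 26435 genes tested (15% higher and 12.1% lower). At an unadjusted p under 0.05 the count was 123, beside 10597 of the 26435 genes tested. With the replicate number as a block the count of calls was 137 (76 higher and 61 lower), for which no share of all genes is given. The split between higher and lower moved with the processing, to 41 higher and 49 lower without the filter for low counts, 60 and 30 under scaling by library size alone, and 29 and 40 without siFOXA1 replicate 2. Leaving out siFOXA1 replicate 1 lowered the count to 46, the lowest, and leaving out siFOXA1 replicate 3 or NSI replicate 3 gave 54 and 57. Over the 158 members at the threshold in PC3, 69 passed (38 higher and 31 lower), against 31.3% of all genes at 5 CPM or more there (13.6% higher and 17.6% lower). The members' median log2 fold change over all tested was 0.04 beside 0.02 for all genes.

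Part of those calls is tied to the rule. In PC3, 13 members at the threshold had an NSI mean under 5 CPM, 10 of them called higher, and 11 had a siFOXA1 mean under 5 CPM, 9 of them called lower; they passed through the group where they are high. Of the 134 with both group means at 5 CPM or more, 50 passed the test, 28 higher and 22 lower. Values of the 3 NSI and the 3 siFOXA1 libraries did not overlap in 96 of the 158 members, for which no share of all genes is given. Only 8 called members at the threshold changed by at least 1 on the log2 scale (5 higher and 3 lower), also without a share of all genes. The central range of all fitted changes there ran from -0.33 to 0.33.

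**Figure D2:**
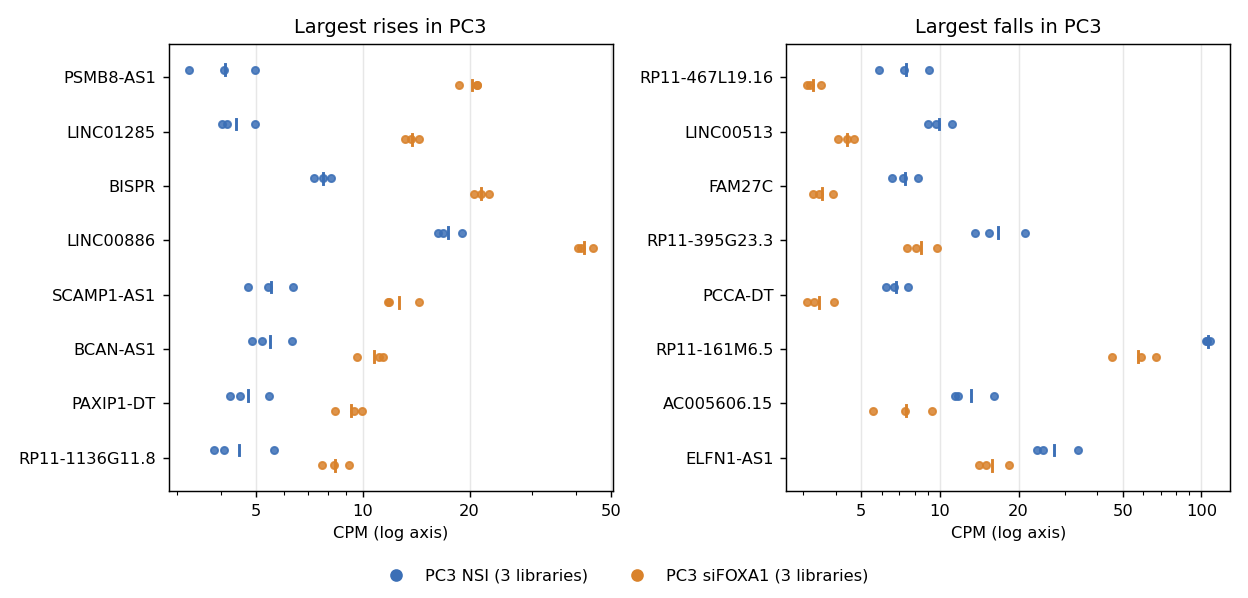
CPM of the 8 members with the largest rises and the 8 with the largest falls in PC3 among calls at the threshold there. Each library is 1 point (x axis, log scale, CPM, and y axis, gene), in NSI and siFOXA1. The groups do not overlap in any of the 16, since the choice of genes required it; PSMB8-AS1 moves from 3.24 to 4.97 CPM in NSI to between 18.7 and 21.0 CPM in siFOXA1.

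Both members of the list of interferon-linked lncRNAs rose in PC3. PSMB8-AS1 (listed as XXbac-BPG246D15.8, ENSG00000204261.8_4, chr6:32811885-32813987, plus strand) runs antisense to PSMB8, a subunit of the immunoproteasome, and TAP1, a peptide transporter of class I antigen presentation. It stood at 3.24, 4.97 and 4.07 CPM under NSI against 18.7, 21.0 and 21.0 CPM under siFOXA1. Every siFOXA1 library was above every NSI library, with a log2 fold change of 2.31 ± 0.16 (SE; edgeR adjusted p = 2.82e-05). PSMB8-AS1 was under 5 CPM in every NSI library and reached the threshold through siFOXA1 alone, so the rule itself favoured a rise. Genes on the other strand cover 43.7% of its exon bases, and PSMB8 itself, the nearest coding gene, changed by 1.95 (adjusted p = 4.22e-05) in PC3, so in these unstranded counts the 2 transcripts cannot be told apart. In VCaP it had too few counts for a test.

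BISPR (ENSG00000282851.2_4, chr19:17516503-17526538, plus strand) starts 46 bases from BST2, which encodes tetherin, a membrane protein that holds budding viruses on the cell. It stood at 7.32, 7.73 and 8.17 CPM under NSI against 22.7, 20.6 and 21.6 CPM under siFOXA1 in PC3. The groups were apart, with a log2 fold change of 1.48 ± 0.09 (SE; edgeR adjusted p = 1.9e-05), and BST2 changed by 2.22 (adjusted p = 4.69e-05). BISPR too was below the count filter in VCaP. Over the whole interferon-linked list, these 2 included, 7 of 10 genes tested were higher and 0 lower in PC3 (15% and 12.1% of all genes), and 3 were higher and 2 lower of 7 in VCaP (22.5% and 23.3% of all genes).

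Promoters of these genes are printed to show where the letters of an interferon-stimulated response element (GAAA, 2 bases of any kind, GAAA, searched on both strands) stand beside genes that rose. FAM111A-DT and MIR222HG, also called higher in PC3, are the other members called there whose promoters hold it. It was in 3 of the 25 promoters of members called higher and 0 of the 13 called lower in PC3, and in 1 of the 36 called higher and 0 of the 10 called lower in VCaP. BISPR is shown as a member that rose without it. Sequences are RefSeq's on GRCh38.p14, 250 bases before to 50 after the start site, on the gene's strand, with matches in capitals.
PSMB8-AS1 (chr6:32843836-32844135, plus strand): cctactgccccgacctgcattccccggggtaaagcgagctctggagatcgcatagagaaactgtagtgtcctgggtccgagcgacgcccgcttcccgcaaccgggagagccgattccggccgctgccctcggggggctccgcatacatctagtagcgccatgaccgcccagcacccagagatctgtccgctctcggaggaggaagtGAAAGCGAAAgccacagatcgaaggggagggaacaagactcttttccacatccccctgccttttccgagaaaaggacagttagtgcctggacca
FAM111A-DT (chr11:59142759-59143058, minus strand): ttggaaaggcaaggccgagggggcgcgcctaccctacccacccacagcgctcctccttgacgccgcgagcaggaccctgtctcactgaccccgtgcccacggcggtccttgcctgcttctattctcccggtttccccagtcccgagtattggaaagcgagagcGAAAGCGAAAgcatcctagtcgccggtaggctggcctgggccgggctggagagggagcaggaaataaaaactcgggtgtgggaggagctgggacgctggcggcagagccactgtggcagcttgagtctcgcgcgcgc
MIR222HG (chrX:45770218-45770517, minus strand): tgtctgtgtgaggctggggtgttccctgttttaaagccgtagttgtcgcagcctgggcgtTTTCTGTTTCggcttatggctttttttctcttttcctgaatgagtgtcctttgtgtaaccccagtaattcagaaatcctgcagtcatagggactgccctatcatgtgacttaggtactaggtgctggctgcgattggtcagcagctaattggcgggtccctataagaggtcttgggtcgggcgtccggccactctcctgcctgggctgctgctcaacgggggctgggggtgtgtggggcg
BISPR (chr19:17405436-17405735, plus strand): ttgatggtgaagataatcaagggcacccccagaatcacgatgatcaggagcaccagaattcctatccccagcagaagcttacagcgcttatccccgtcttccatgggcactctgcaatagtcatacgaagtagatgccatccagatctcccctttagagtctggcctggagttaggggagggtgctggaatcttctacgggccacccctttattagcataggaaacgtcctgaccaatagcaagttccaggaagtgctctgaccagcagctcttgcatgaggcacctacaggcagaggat

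The match starts 44 bases before the start site in PSMB8-AS1, 87 bases before it in FAM111A-DT and 190 bases before it, on the other strand, in MIR222HG. Among the 110 members with a promoter in the table, 4 held the motif (3.64%), beside 3.57% of all 35116 promoters of this length, and among the 25 called higher in PC3 it was 3. A match is a description of letters, not a site in use. FAM111A-DT (listed as AP001258.4, ENSG00000245571.6_5, chr11:58897606-58910228, minus strand) shares its start region with FAM111A, which encodes a protease that restricts some viruses. It stood at 0.926, 1.28 and 0.732 CPM under NSI against 2.02, 2.25 and 2.36 CPM under siFOXA1 in PC3. Its groups did not overlap, its log2 fold change was 1.18 ± 0.21 (SE; edgeR adjusted p = 0.0044), and FAM111A changed by 1.41 (adjusted p = 6.47e-05). In VCaP, where it reached the threshold, FAM111A-DT changed by -0.32 (adjusted p = 0.065) and FAM111A by -0.56 (adjusted p = 0.00133), and the lines differed for FAM111A-DT by -1.49 ± 0.24 (SE; edgeR adjusted p = 0.000359) on the log2 scale.

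Other large rises in PC3 were in members outside the interferon-linked list. LINC01285 (listed as RP4-562J12.2, ENSG00000203650.8_3, chrX:117973519-118053630, plus strand) stood at 4.16, 4.02 and 4.98 CPM under NSI against 13.2, 14.4 and 13.7 CPM under siFOXA1, with a log2 fold change of 1.65 ± 0.12 (SE; edgeR adjusted p = 3.41e-05). LINC00886 (listed as RP11-392A22.2, ENSG00000240875.5_4, chr3:156465135-156534823, minus strand) stood at 16.8, 16.3 and 19.1 CPM under NSI against 41.1, 40.5 and 44.4 CPM under siFOXA1, with a log2 fold change of 1.27 ± 0.10 (SE; edgeR adjusted p = 4.77e-05). In both genes the lowest siFOXA1 library was above the highest NSI library. LINC01285 was under 5 CPM in every NSI library and reached the threshold through siFOXA1 alone, so the rule itself favoured its rise. SCAMP1-AS1 (listed as CTD-2037K23.2, ENSG00000245556.2_3, chr5:77638189-77656331, minus strand), which starts 76 bases from SCAMP1, a carrier protein of secretory membranes, rose from 5.51 ± 0.818 to 12.7 ± 1.49 CPM (n = 3 each, mean ± SD), or 1.20 ± 0.14 (SE; edgeR adjusted p = 0.000535) on the log2 scale. PAXIP1-DT rose by 0.97 (adjusted p = 0.00111), BCAN-AS1 by 0.97 (adjusted p = 0.00106) and RP11-1136G11.8 by 0.90 (adjusted p = 0.00455). RP11-1136G11.8 shares exons with CSAD, which changed by 0.81 (adjusted p = 0.000604).

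The falls in PC3 were smaller than the largest rises. RP11-467L19.16 (ENSG00000278626.1_4, chr15:20848101-20848750, minus strand) stood at 7.28, 9.06 and 5.86 CPM under NSI against 3.19, 3.12 and 3.52 CPM under siFOXA1, a log2 fold change of -1.17 ± 0.16 (SE; edgeR adjusted p = 0.0014). LINC00513 (listed as AC016831.7, ENSG00000233559.1_3, chr7:130538479-130613408, plus strand) stood at 9.03, 11.1 and 9.65 CPM under NSI against 4.10, 4.70 and 4.43 CPM under siFOXA1, a log2 fold change of -1.17 ± 0.12 (SE; edgeR adjusted p = 0.000258). NSI values exceeded siFOXA1 values in every pairing of libraries for both. Both genes, and PCCA-DT below, had siFOXA1 means under 5 CPM and reached the threshold through NSI alone. For these the rule itself favoured a fall. FAM27C changed by -1.04 (adjusted p = 0.000683) and RP11-395G23.3 by -0.99 (adjusted p = 0.00446). PCCA-DT (listed as RP11-12G12.7, ENSG00000274605.1_4, chr13:100738285-100741102, minus strand), divergent from the gene of a propionyl-CoA carboxylase subunit, went from 6.81 ± 0.678 to 3.45 ± 0.447 CPM (n = 3 each, mean ± SD), or -0.98 ± 0.13 (SE; edgeR adjusted p = 0.00126).

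RP11-161M6.5, among the highest members per kilobase in PC3, stood at 108, 104 and 105 CPM under NSI against 58.6, 67.2 and 45.4 CPM under siFOXA1, a log2 fold change of -0.89 ± 0.14 (SE; edgeR adjusted p = 0.00214). All of its exon bases are shared with RP11-161M6.4 on the other strand, so its reads cannot be assigned to a strand. AC005606.15 lies wholly over ZNF598 on the other strand and changed by -0.83 (adjusted p = 0.0181), while ZNF598 changed by -0.61 (adjusted p = 0.0333); without siFOXA1 replicate 1 the call was lost (-0.82, adjusted p = 0.0666). ELFN1-AS1 (listed as AC074389.9, ENSG00000236081.1_3, chr7:1778266-1781927, minus strand) went from 27.3 ± 5.58 to 15.8 ± 2.20 CPM (n = 3 each, mean ± SD), or -0.79 ± 0.16 (SE; edgeR adjusted p = 0.00756).

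In VCaP, 59 members rose and 37 fell. These are 96 of the 199 members tested, beside 45.8% of all 22925 genes tested (22.5% higher and 23.3% lower), so the share called was close to that of all genes. Over the 137 members at the threshold in VCaP, 71 passed (40 higher and 31 lower), against 57% of all genes at 5 CPM or more there (23.9% higher and 33.1% lower). Of these members, 18 had an NSI mean under 5 CPM (16 called higher) and 11 a siFOXA1 mean under 5 CPM (7 called lower), and of the other 108 the test called 24 higher and 24 lower. ERVE-1, LINC02197, LINC01588, LINC00511, MIR22HG and SLC12A2-DT, described below, are among the 18, and LINC02387 is among the 11. For these the rule itself favoured the direction of the change. In a fit over all 12 libraries the test called 60 higher and 22 lower, for which no share of all genes is given. Groups did not overlap in 84 of the 137, again with no share of all genes given. Changes of at least 1 on the log2 scale were found in 18 called members at the threshold, 9 higher and 9 lower, also without a share of all genes. The members' median log2 fold change over all tested was 0.07 beside 0.02 for all genes.

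**Figure D3:**
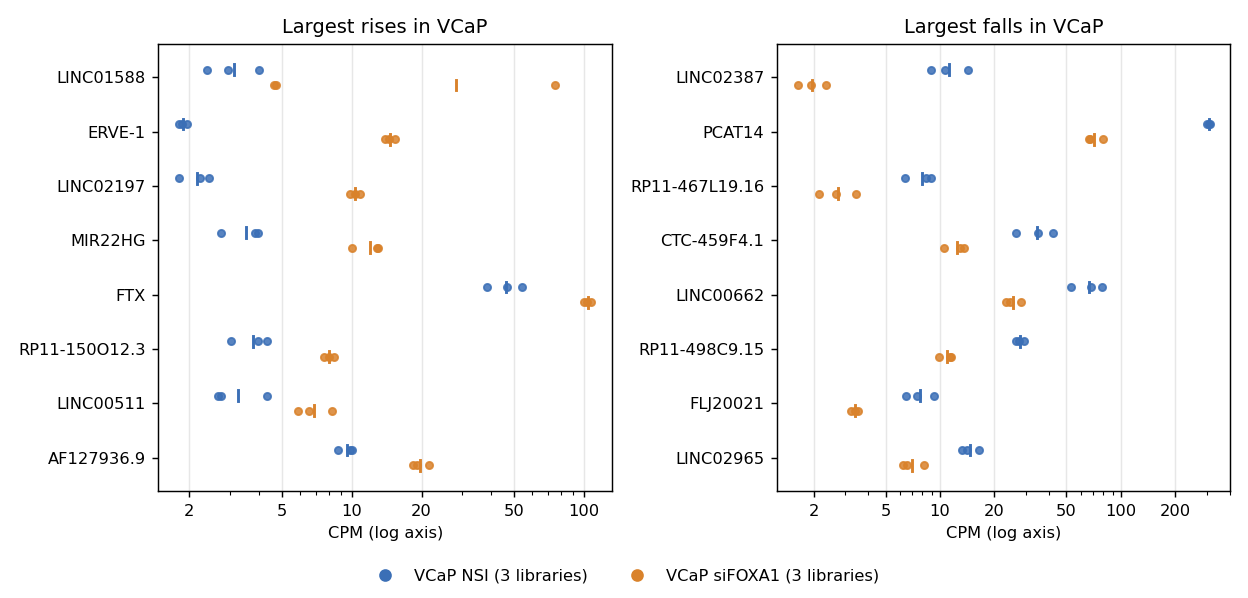
CPM of the 8 largest rises and the 8 largest falls in VCaP among calls at the threshold there whose groups did not overlap. Each library is 1 point (x axis, log scale, CPM, and y axis, gene), in NSI and siFOXA1. PCAT14 moves from 301 to 311 CPM in NSI to between 66.7 and 80.0 CPM in siFOXA1, and a single siFOXA1 library of LINC01588 stands at 75.0 CPM beside 4.71 and 4.65 CPM in the other two.

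PCAT14, a prostate-cancer-associated transcript, was the most abundant member that fell in VCaP. PCAT14 (ENSG00000280623.1_2, chr22:23879068-23889984, plus strand) stood at 308, 301 and 311 CPM under NSI against 80.0, 66.7 and 67.6 CPM under siFOXA1. The 3 NSI libraries lay close together and far above the 3 siFOXA1 libraries, a log2 fold change of -2.10 ± 0.08 (SE; edgeR adjusted p = 2.43e-07). In PC3 it was nearly silent, at 0.165, 0.109 and 0.0753 CPM under NSI against 1.38, 1.47 and 1.35 CPM under siFOXA1, and rose there by 3.59 ± 0.27 (SE; edgeR adjusted p = 4.7e-05). The difference between the lines was -5.68 ± 0.21 (SE; edgeR adjusted p = 3.31e-10), at PC3 levels far under the threshold.

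The other prostate-linked members moved less. PART1, an androgen-regulated prostate transcript, went from 29.5 ± 3.78 to 26.4 ± 2.05 CPM (n = 3 each, mean ± SD) in VCaP, a log2 fold change of -0.16 (adjusted p = 0.197) that did not pass the test. PCAT19 passed in VCaP at 0.28 (adjusted p = 0.0299), a call lost with DESeq2's Wald test (0.27, adjusted p = 0.0645) and under 8 more of the 14 alternatives. PRNCR1 did not pass in either line (0.34, adjusted p = 0.105 in VCaP). Among all 20 genes of the prostate and androgen list, 15 were tested in VCaP and 5 were higher and 6 lower, and 16 were tested in PC3 with 3 higher and 1 lower, beside 45.8% of all genes called in VCaP and 27% in PC3. LINC00261, beside the gene of the related forkhead factor FOXA2 and the only member on the endoderm list, changed by -0.11 (adjusted p = 0.444) in PC3 and was not tested in VCaP.

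LINC02387 had the largest fall in VCaP among members at the threshold. LINC02387 (listed as RP11-771K4.1, ENSG00000256232.1_4, chr12:31516415-31522235, minus strand) stood at 14.3, 10.6 and 8.93 CPM under NSI against 2.34, 1.63 and 1.92 CPM under siFOXA1, a log2 fold change of -2.52 ± 0.20 (SE; edgeR adjusted p = 9.12e-06). LINC00662 (listed as CTC-459F4.2, ENSG00000261824.6_4, chr19:28175488-28284848, minus strand) stood at 78.3, 68.3 and 52.9 CPM under NSI against 27.9, 24.5 and 23.2 CPM under siFOXA1, a log2 fold change of -1.40 ± 0.13 (SE; edgeR adjusted p = 3.1e-05). Neither gene's groups overlapped. CTC-459F4.1 changed by -1.48 (adjusted p = 8.23e-05), FLJ20021 by -1.19 (adjusted p = 0.000104) and LINC02965 by -1.07 (adjusted p = 9.76e-05). FLJ20021 is divergent from PPP3CA, a catalytic subunit of the phosphatase calcineurin, and PPP3CA changed by -0.83 (adjusted p = 8.01e-05).

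LINC01588 had the largest fitted rise in VCaP among members at the threshold there, and 1 library carried it. LINC01588 (ENSG00000214900.9_3, chr14:50394289-50559361, minus strand) stood at 3.99, 2.39 and 2.94 CPM under NSI against 75.0, 4.71 and 4.65 CPM under siFOXA1. Its log2 fold change was 3.18 ± 1.01 (SE; edgeR adjusted p = 0.0288), and without siFOXA1 replicate 1 it was 0.59 (adjusted p = 0.0450). Leaving out any NSI library ended the call, with adjusted p-values from 0.0670 to 0.0930.

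ERVE-1 and LINC02197 rose evenly across libraries. ERVE-1, a transcript of an endogenous retroviral locus (listed as CTD-2008P7.9, ENSG00000267259.1_4, chr17:26559616-26562307, minus strand), stood at 1.96, 1.85 and 1.81 CPM under NSI against 15.3, 13.9 and 14.5 CPM under siFOXA1, a log2 fold change of 2.96 ± 0.09 (SE; edgeR adjusted p = 9.67e-08). LINC02197 (listed as RP11-136K7.2, ENSG00000250387.2_4, chr5:70647682-70742169, minus strand) stood at 2.21, 2.43 and 1.81 CPM under NSI against 9.80, 10.3 and 10.9 CPM under siFOXA1, a log2 fold change of 2.27 ± 0.12 (SE; edgeR adjusted p = 1.11e-06). In both, the siFOXA1 libraries lay within a narrow range above all NSI libraries. Both reached the threshold through siFOXA1 alone, so the rule itself favoured a rise. RP11-150O12.3 rose by 1.09 (adjusted p = 0.000143), and AF127936.9, which overlaps the nuclear receptor co-regulator gene NRIP1, rose by 1.05 (adjusted p = 1.64e-05) while NRIP1 changed by 0.23 (adjusted p = 0.0821).

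LINC00511 (ENSG00000227036.6_2, chr17:70320204-70636611, minus strand) stood at 2.73, 2.67 and 4.33 CPM under NSI against 6.53, 5.89 and 8.21 CPM under siFOXA1, a log2 fold change of 1.08 ± 0.20 (SE; edgeR adjusted p = 0.00183). In PC3 it changed by 0.17 (adjusted p = 0.243), and the lines differed by 0.92 ± 0.23 (SE; edgeR adjusted p = 0.00831). Its promoter is printed as that of a named member holding letters of the forkhead motif (TGTTTAC or TGTTTGC, both strands, in capitals), which starts 55 bases before the start site.
LINC00511 (chr17:72640423-72640722, minus strand): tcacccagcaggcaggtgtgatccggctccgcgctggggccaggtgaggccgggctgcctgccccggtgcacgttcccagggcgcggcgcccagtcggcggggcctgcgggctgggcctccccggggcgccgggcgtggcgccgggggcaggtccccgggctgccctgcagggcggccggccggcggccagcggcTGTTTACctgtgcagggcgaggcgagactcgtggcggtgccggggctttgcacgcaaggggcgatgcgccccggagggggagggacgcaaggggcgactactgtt

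The forkhead letters were found in 6 of the 110 member promoters (5.45%), beside 7.17% of all 35116 promoters. They were in 2 of the 36 called higher and 0 of the 10 called lower in VCaP, and in 0 of the 25 called higher and 2 of the 13 called lower in PC3. No match of this motif overlapped one of the interferon motif. FOXA1 acts largely at enhancers, which these windows do not cover, and no match says only that the letters are not in this window.

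Members that contain microRNAs were read against the shares of all genes called higher and lower, 15% and 12.1% in PC3 and 22.5% and 23.3% in VCaP. By RefSeq spans, 13 members hold the hairpins of 47 mature microRNAs; in PC3, 5 were higher and 0 lower of 13 tested, and in VCaP 5 were higher and 1 lower of 11. On the list of microRNA host lincRNAs, which holds 9 members, 2 of 9 rose in PC3, and in VCaP 4 of 8 rose and 1 fell. Mature microRNAs, which are cut from these transcripts and repress mRNAs through bases 2 to 8 (the seed), were not measured. The mature forms of the hosts described below are printed from RefSeq with the seed in capitals, because several hosts share a seed.
hsa-miR-22-3p (MIR22HG): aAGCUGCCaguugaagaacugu
hsa-miR-210-3p (MIR210HG): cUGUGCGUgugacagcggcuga
hsa-let-7i-5p (MIRLET7IHG): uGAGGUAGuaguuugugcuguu
hsa-let-7a-5p (MIRLET7A1HG): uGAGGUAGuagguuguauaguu
hsa-let-7b-5p (MIRLET7BHG): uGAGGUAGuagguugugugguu
hsa-let-7c-5p (MIR99AHG): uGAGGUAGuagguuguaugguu
hsa-miR-29b-3p (MIR29B2CHG): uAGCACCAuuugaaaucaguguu
hsa-miR-29c-3p (MIR29B2CHG): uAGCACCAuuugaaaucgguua
hsa-miR-221-3p (MIR222HG): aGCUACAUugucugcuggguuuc
hsa-miR-222-3p (MIR222HG): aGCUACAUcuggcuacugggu

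MIR22HG (ENSG00000186594.14_3, chr17:1614787-1620468, minus strand) had the largest rise of these hosts at the threshold in VCaP. It stood at 3.95, 3.85 and 2.73 CPM under NSI against 12.8, 13.0 and 10.1 CPM under siFOXA1 there. The groups were separate, with a log2 fold change of 1.77 ± 0.16 (SE; edgeR adjusted p = 2.11e-05). In PC3 it changed by 0.23 (adjusted p = 0.132), which passed only with the replicate block (0.23, adjusted p = 0.028), and the lines differed by 1.56 ± 0.19 (SE; edgeR adjusted p = 2.33e-05). MIR210HG, whose microRNA is induced by hypoxia, rose by 0.65 (adjusted p = 0.0118) in PC3 and by 1.58 (adjusted p = 0.0372) in VCaP. The PC3 call was lost in the fit over all 12 libraries (0.66, adjusted p = 0.114). The VCaP call was lost with DESeq2, without siFOXA1 replicate 3 (0.79, adjusted p = 0.138), without NSI replicate 1 (1.22) and without NSI replicate 2 (1.48).

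The let-7 seed GAGGUAG is shared by 7 mature microRNAs in 5 of the hosts. MIRLET7IHG (listed as RP11-631N16.2, ENSG00000257354.2_5, chr12:62996532-63015993, plus strand) stood at 17.1, 12.6 and 16.4 CPM under NSI against 20.9, 23.6 and 22.8 CPM under siFOXA1 in PC3. Every siFOXA1 library was higher, with a log2 fold change of 0.55 (adjusted p = 0.0143), though the call was lost without siFOXA1 replicate 2 (0.47) or 3 (0.50). MIRLET7A1HG rose in PC3 by 0.51 (adjusted p = 0.0267) and MIR99AHG in VCaP by 0.30 (adjusted p = 0.0424); leaving out 5 of the 6 libraries of its line, each in turn, ended either call. MIRLET7BHG did not pass in PC3 (0.16, adjusted p = 0.663) or VCaP (-0.01, adjusted p = 0.959). MIR4458HG did not pass in VCaP (0.13, adjusted p = 0.197) or PC3 (2.48, adjusted p = 0.051). The lines differed for MIR4458HG by -2.32 (edgeR adjusted p = 0.00775).

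MIR29B2CHG, host of miR-29b and miR-29c with 1 common seed, rose in VCaP by 0.39 (adjusted p = 0.0242), a call lost without siFOXA1 replicate 1 (0.34) or 2 (0.40). MIR222HG, whose miR-221 and miR-222 share a seed, rose in PC3 by 0.42 (adjusted p = 0.0374), a call lost when any of 5 libraries was left out (without siFOXA1 replicate 2 the value was 0.28). MIR23AHG rose in PC3 by 0.71 (adjusted p = 0.0342) and lost its call without NSI replicate 1 (0.52) or 3 (0.81) or without siFOXA1 replicate 2 (0.58) or 3 (0.59). MIR503HG was the host that fell in VCaP, with -0.83 (adjusted p = 0.0434), a call lost under 8 of 14 alternatives. In PC3 it went the other way with the replicate block (0.44, adjusted p = 0.00162), and the lines differed by -1.25 ± 0.39 (SE; edgeR adjusted p = 0.03).

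FTX and JPX, non-coding genes of the X-inactivation centre, rose in VCaP. FTX (ENSG00000230590.9_4, chrX:73166390-73513409, minus strand), which holds 6 mature microRNAs, stood at 46.7, 54.3 and 38.2 CPM under NSI against 100.5, 103 and 108 CPM under siFOXA1, a log2 fold change of 1.16 ± 0.11 (SE; edgeR adjusted p = 3.29e-05). JPX (ENSG00000225470.7_3, chrX:73164019-73290243, plus strand) changed by 0.33 (adjusted p = 0.016). In PC3, FTX changed by 0.04 (adjusted p = 0.774), JPX changed by -0.31 (adjusted p = 0.0194), and the JPX call there was lost without NSI replicate 1 or 3 or siFOXA1 replicate 1. The lines differed by 1.14 ± 0.16 (SE; edgeR adjusted p = 7.41e-05) for FTX and by 0.66 ± 0.13 (SE; edgeR adjusted p = 0.00139) for JPX. The 2 genes lie on opposite strands and share exon bases, 84.6% of those of JPX, so in the unstranded PC3 counts they cannot be told apart.

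NORAD, a cytoplasmic lincRNA that binds PUMILIO proteins and is induced by DNA damage, was the most abundant member of PC3 on a placed chromosome. NORAD (ENSG00000260032.1_3, chr20:34633544-34638882, minus strand) stood at 539.9, 403 and 489 CPM under NSI against 532, 431 and 482 CPM under siFOXA1, ranges that overlap, and at 287, 306 and 283 CPM under NSI against 364, 329 and 414 CPM under siFOXA1 in VCaP. The log2 fold changes were 0.01 (adjusted p = 0.948) in PC3, where it turned negative under several alternatives, and 0.34 ± 0.09 (SE; edgeR adjusted p = 0.0132) in VCaP, a call lost without NSI replicate 1 (0.31). TP53TG1 (ENSG00000182165.17_2, chr7:86954615-86974831, minus strand), a target of p53, stood at 17.1, 14.8 and 14.1 CPM under NSI against 9.88, 9.42 and 8.51 CPM under siFOXA1 in VCaP. It changed there by -0.73 ± 0.10 (SE; edgeR adjusted p = 0.000264) on the log2 scale, and CROT, the peroxisomal acyltransferase gene it diverges from, changed by -1.16 (adjusted p = 2.43e-05). In PC3, TP53TG1 changed by 0.26 (adjusted p = 0.317) and passed, as higher, with the replicate block (0.27, adjusted p = 0.0399). The PC3 change of CROT was 0.33 (adjusted p = 0.0531), and the lines differed for TP53TG1 by -0.97 ± 0.21 (SE; edgeR adjusted p = 0.00307). These are the 2 members on the list of p53-linked lncRNAs, of which 1 of 6 tested rose in PC3, and 3 rose and 1 fell of 6 in VCaP. Of all genes, 15% were higher and 12.1% lower in PC3, and 22.5% and 23.3% in VCaP.

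CRNDE, a lincRNA raised in many tumours, fell in PC3 and not detectably in VCaP. It stood at 8.52, 8.92 and 9.41 CPM under NSI against 5.73, 6.64 and 5.20 CPM under siFOXA1 in PC3, a log2 fold change of -0.61 ± 0.12 (SE; edgeR adjusted p = 0.00635). Its VCaP change was 0.07 (adjusted p = 0.517), and the difference between the lines was 0.71 ± 0.15 (SE; edgeR adjusted p = 0.00234). CYTOR changed by -0.20 (adjusted p = 0.375) in PC3, and in VCaP it rose by 1.18 (adjusted p = 0.0117) at levels far under the threshold, a call that DESeq2 did not make. PWAR6, of the imprinted Prader-Willi region and the only member on the list of imprinted lncRNAs, changed by -0.47 (adjusted p = 0.0424) in PC3 and -0.06 (adjusted p = 0.76) in VCaP. Its PC3 call was lost with upper-quartile factors (-0.44), with library size alone (-0.41), without NSI replicate 1 (-0.36) or 3 (-0.50) and without any 1 of the siFOXA1 libraries (-0.54 to -0.43). In VCaP it passed without NSI replicate 3 (-0.24, adjusted p = 0.0159). LINC01116 changed in PC3 by -0.71 (adjusted p = 0.0234), a call lost without siFOXA1 replicate 1 (-0.66) or 3 (-0.70). On the list of widely expressed lncRNAs, 4 of 11 members tested fell and 0 rose in PC3, where 27% of all genes were called. In VCaP, 4 of 9 rose and 1 fell, where 45.8% of all genes were called.

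Divergent members, whose start site lies within 2000 bases of that of a protein-coding gene on the other strand, were mostly higher among those called in PC3. Of 42 such members, 15 passed there, beside 27% of all genes, 14 higher and 1 lower (PCCA-DT). The members had a median log2 fold change of 0.26 and their partners one of -0.17 over 41 pairs. The count called ran from 9 (8 higher) without siFOXA1 replicate 1 to 21 (19 higher) with the replicate block, and was 13 (11 higher and 2 lower) without the filter for low counts. In VCaP, 15 of 38 passed, a share below the 45.8% of all genes, 8 higher and 7 lower, with medians of 0.09 for members and -0.07 for partners over 38 pairs. The test of the difference between the lines called 13 of the 42, beside 22.2% of all genes, of which 11 had the more positive change in PC3.

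**Figure D4:**
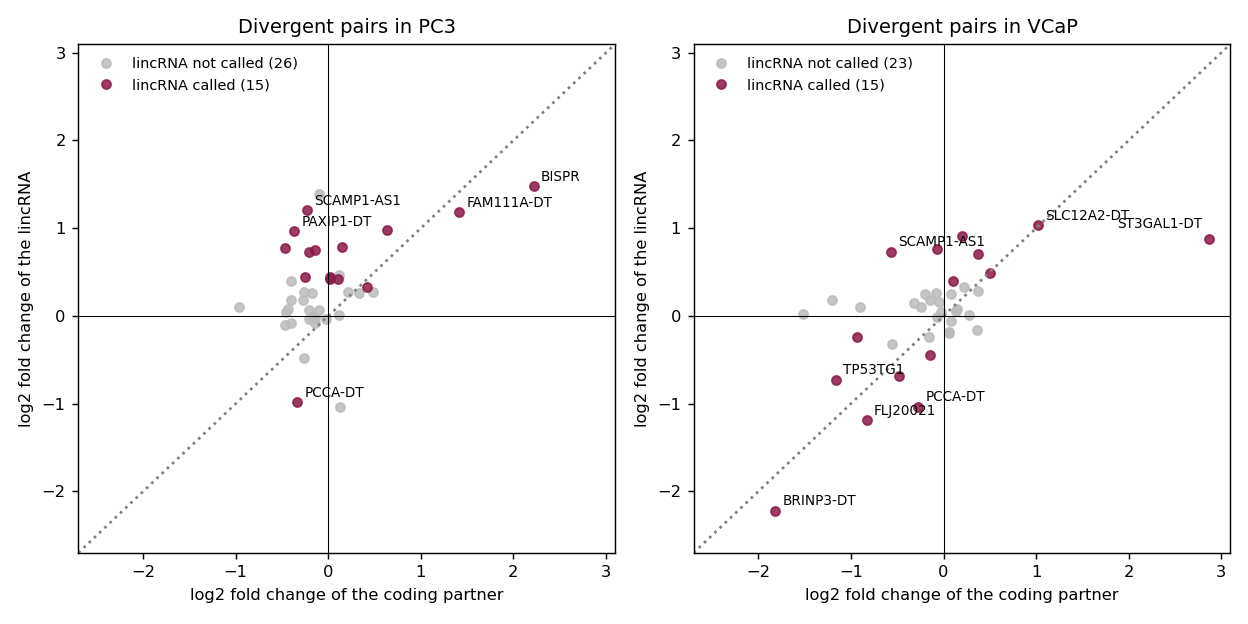
Log2 fold change of each divergent member (y axis) against that of its protein-coding partner (x axis), siFOXA1 against NSI, in PC3 (41 pairs) and VCaP (38 pairs); the dotted line marks an equal change. In PC3 31 of the 41 points lie above that line, and in VCaP 22 of the 38.

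In PC3 both genes of the pair were called in 6 cases, 4 moving alike and 2 apart. In one of the opposite pairs, PAXIP1-DT rose (0.97, adjusted p = 0.00111) and PAXIP1, an adaptor of DNA damage signalling and histone methylation, changed by -0.37 (adjusted p = 0.0301). NUP50-DT rose by 0.76 (adjusted p = 0.000531) beside -0.14 (adjusted p = 0.309) for the nucleoporin gene NUP50, and ZNF674-AS1 rose by 0.72 (adjusted p = 0.00199) beside -0.21 (adjusted p = 0.139) for ZNF674. These partners either fell or did not pass the test. Other genes rose together, as BISPR with BST2 and FAM111A-DT with FAM111A, given above. Over the 41 pairs, 23 had changes of the same sign in PC3.

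In VCaP both genes were called in 10 pairs, 9 in the same direction. Among the 38 pairs tested there, 15 members and 18 partners were called, and 22 pairs had changes of the same sign. SLC12A2-DT (listed as CTC-228N24.3, ENSG00000245937.7_3, chr5:127276118-127418792, minus strand) went from 4.85 ± 0.711 to 9.94 ± 0.685 CPM (n = 3 each, mean ± SD), a log2 fold change of 1.04 ± 0.12 (SE; edgeR adjusted p = 9.45e-05), and SLC12A2, a sodium, potassium and chloride cotransporter, changed by 1.02 (adjusted p = 4.23e-05). ST3GAL1-DT rose by 0.88 (adjusted p = 0.00803) with the sialyltransferase gene ST3GAL1 at 2.87 (adjusted p = 2.47e-07). BRINP3-DT changed by -2.22 (adjusted p = 0.000707) with BRINP3 at -1.82 (adjusted p = 0.000426). GSK3B-DT rose by 0.49 (adjusted p = 0.00387) with the kinase gene GSK3B at 0.50 (adjusted p = 0.00504), and in PC3 by 0.79 (adjusted p = 0.0366), a call lost in 4 of 6 fits that left out 1 library. The pair called in opposite directions was SCAMP1-AS1 (0.73, adjusted p = 0.0027) with SCAMP1 at -0.57 (adjusted p = 0.000904).

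The share of members called the same way in both lines was close to that of all genes. Of 183 members tested in both, 20 were called the same way (10.9%), beside 10.7% of the 19261 genes tested in both: 15 higher (4.97% of all genes) and 5 lower (5.72% of all genes). The replicate block gave 38, and without PC3 siFOXA1 replicate 1 it was 11. The 5 lower in both were RP11-467L19.16, PCCA-DT, RP11-498C9.15, LINC00662 and LINC02067. RP11-498C9.15 changed by -1.28 (adjusted p = 0.0114) in PC3 and -1.33 (adjusted p = 2.26e-06) in VCaP, and RP11-467L19.16 changed in VCaP by -1.53 (adjusted p = 0.000134). PCCA-DT changed in VCaP by -1.03 (adjusted p = 0.000166), near its PC3 change. LINC00662 changed in PC3 by -0.48 (adjusted p = 0.00302), and its VCaP change was the more negative, by a difference of -0.90 ± 0.16 (SE; edgeR adjusted p = 0.000859). LINC02067 changed in PC3 by -0.52 (adjusted p = 0.0269), a call lost without siFOXA1 replicate 1 (-0.44) or 3 (-0.52) or NSI replicate 3 (-0.58), and by -2.09 (adjusted p = 0.00156) in VCaP.

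Among the 15 higher in both, LINC00886 rose in VCaP by 1.84 (adjusted p = 0.0012) at a mean of 0.303 CPM over the 6 libraries. RP11-32B5.7 rose by 1.07 (adjusted p = 0.0015) in PC3 and 0.58 (adjusted p = 0.00952) in VCaP. RP11-495L19.1 rose by 0.63 (adjusted p = 0.0407) in PC3, a call lost in 5 of the 6 fits that left out 1 library, and by 0.69 (adjusted p = 0.00844) in VCaP. The others included MIR210HG, SCAMP1-AS1 and GSK3B-DT, given above.

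Opposite calls were found in 8 members (4.37%), beside 5.04% of all genes tested in both lines: 6 lower in PC3 and higher in VCaP, and 2 the reverse. The difference between the lines passed its own test in all 8, but only OLMALINC and JPX, 2 of them, reached the threshold in both lines. OLMALINC (ENSG00000235823.2_3, chr10:102133270-102213800, plus strand), near the fatty acid desaturase gene SCD, stood at 53.1, 62.6 and 50.9 CPM under NSI against 37.4, 42.9 and 44.8 CPM under siFOXA1 in PC3, and at 16.1, 18.0 and 13.4 CPM under NSI against 28.9, 32.8 and 25.9 CPM under siFOXA1 in VCaP. The groups were separate in both lines and moved apart, by -0.41 ± 0.11 (SE; edgeR adjusted p = 0.025) in PC3 and 0.88 ± 0.12 (SE; edgeR adjusted p = 0.000256) in VCaP. The PC3 call was lost without siFOXA1 replicate 1 (-0.34).

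LINC01133 (listed as RP11-48O20.4, ENSG00000224259.6_3, chr1:159931008-159954540, plus strand) had the largest difference between the lines among these 8, 6.03 ± 0.31 (SE; edgeR adjusted p = 5.69e-09). It stood at 165, 183 and 163 CPM under NSI against 145, 138 and 120.1 CPM under siFOXA1 in PC3, a log2 fold change of -0.34 (adjusted p = 0.0346) that lost its call in 6 of 14 alternatives. In VCaP it stood at 0.0578, 0.0199 and 0.0174 CPM under NSI against 1.79, 1.47 and 1.69 CPM under siFOXA1, a log2 fold change of 5.62 ± 0.32 (SE; edgeR adjusted p = 1.44e-06) that rests on 5 counts in all under NSI, so its size depends on the prior count of the fit. TERC, the template RNA of telomerase, went from 22.8 ± 1.96 to 37.3 ± 3.30 CPM (n = 3 each, mean ± SD) in VCaP, a log2 fold change of 0.71 ± 0.09 (SE; edgeR adjusted p = 0.000139). In the PC3 libraries it went from 2.64 ± 0.513 to 0.979 ± 0.411 CPM (n = 3 each, mean ± SD), or -1.44 ± 0.28 (SE; edgeR adjusted p = 0.00686). Its opposite changes cannot be told apart from the difference in kit between the lines.

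RP11-513I15.6 lies wholly over NUDT3 on the other strand. It changed by -0.71 (adjusted p = 0.00187) in PC3, where NUDT3 changed by -0.58 (adjusted p = 0.00173), and by 1.49 (adjusted p = 5.15e-06) in VCaP, where NUDT3 changed by 0.57 (adjusted p = 0.000645). LINC00997 changed by -0.76 (adjusted p = 0.0018) and 0.70 (adjusted p = 0.0122), and AC012531.25 by 1.91 (adjusted p = 0.00411) and -0.93 (adjusted p = 0.000299), in PC3 and VCaP.

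Over all 252 members, the difference between the lines passed in 62, 32 with the more positive change in VCaP and 30 with the more positive change in PC3. All 30425 genes tested gave 22.2% (11.3% and 11%). At an unadjusted p under 0.05 the count was 94, beside 10060 of the 30425 genes. The replicate block gave 80 calls, for which no share of all genes is given. These differences carry the dose, medium, kit and strand use along with the line.

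**Figure D5:**
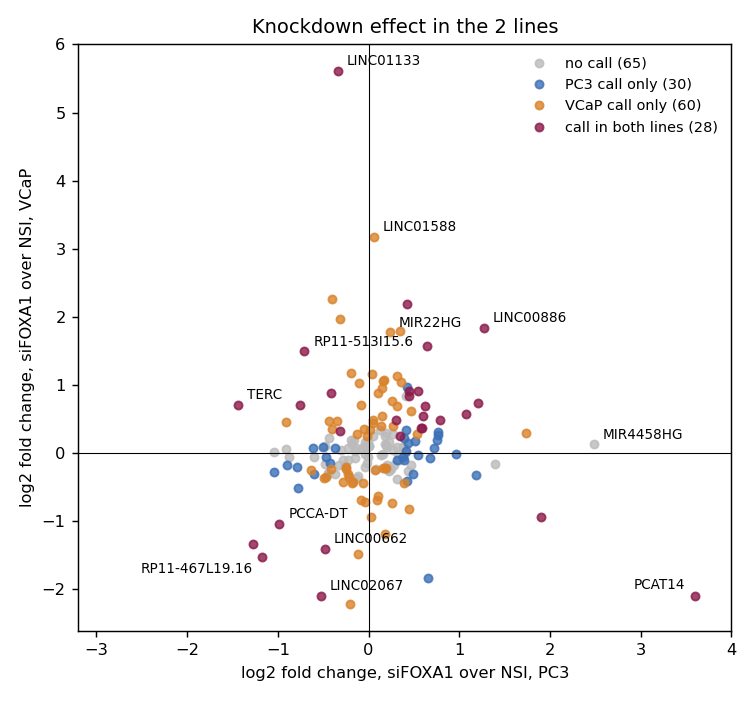
Log2 fold change of siFOXA1 against NSI in PC3 (x axis) and VCaP (y axis) for the 183 members tested in both lines, coloured by where the test called them. The test called 30 in PC3 alone, 60 in VCaP alone, 28 in both and 65 in neither; PCAT14 stands far to the lower right and LINC01133 far at the top.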

How the data were processed

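Gene counts from 12 RNA-seq libraries were used, 3 each of PC3 NSI, PC3 siFOXA1, VCaP NSI and VCaP siFOXA1. The values are estimated counts that the authors deposited per gene: per the file headers, featureCounts (Subread 2.0.0) counted reads on GENCODE 28 genes of GRCh37, giving multi-mapping reads and reads over several genes as fractions, without strand for PC3 and on the reverse strand for VCaP. STAR 2.7.3a is named in the submitters' processing notes. A read shared between copies of a gene or between overlapping genes is split, so levels of such members are uncertain.

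Counts were rounded and fitted for each line with edgeR 4.0.16 (limma 3.58.1, R 4.3.3) using TMM scaling, filterByExpr and the quasi-likelihood test, two-sided, with Benjamini-Hochberg adjustment over all genes tested; a call is an adjusted p under 0.05, and a log2 fold change is siFOXA1 over NSI. Differences between the lines are an interaction term over all 12 libraries. Biological coefficients of variation were 15.0% in PC3 and 9.90% in VCaP. Tables and figures used Python 3.11.15 with pandas 2.3.3, numpy 2.4.6 and matplotlib 3.10.9. The fit was tested on simulated counts.

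Library totals, which set the precision of low members, are given in the opening. Alternatives were DESeq2 1.42.0 and its size factors, upper-quartile scaling, library size alone, no filter, unrounded counts, a fit over 12 libraries, leaving out each library, other thresholds of the member rule, subsets of members and a replicate block. In PC3 the deviations of same-numbered NSI and siFOXA1 libraries correlated at 0.66, 0.72 and 0.30 over the 12314 genes at 5 CPM or more, so the numbers, which come from the labels, were taken to pair the libraries there, though over all 26435 genes tested the values were 0.15, 0.31 and 0.095. The main test has no block.

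Members were named by rank: in each line the 8 largest rises and 8 largest falls among calls at 5 CPM or more whose groups did not overlap, the 6 highest levels per kilobase, the 5 largest differences between the lines of each sign at 5 CPM or more in both, up to 5 of each direction called alike in both lines, and fixed names. Members with opposite calls, microRNA hosts, divergent examples and LINC01116 were added after their values were seen. The members, lists and tests were chosen with earlier results of these data known. Current symbols were found for 144 of the 252 members and promoters for 110. Levels of members on the Y chromosome are not given.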

Additional observations from a re-analysis of the deposited data

Results flagged for a closer look

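For 36 named members the change after FOXA1 knockdown differed between the lines by the interaction term of edgeR's quasi-likelihood test, given here as the VCaP minus the PC3 log2 fold change; the line cannot be told apart from the siRNA dose, medium, kit and strand use. The more positive change was in VCaP for LINC01133 (6.03), LINC01588 (3.14, and 0.55 without VCaP siFOXA1 replicate 1), LINC02197 (2.71), ERVE-1 (2.37), RP11-513I15.6 (2.22), TERC (2.18), LINC00261 (2.04), MIR22HG (1.56), LINC00997 (1.49), CYTOR (1.40), OLMALINC (1.31), SLC12A2-DT (1.16), FTX (1.14), LINC00511 (0.92), AF127936.9 (0.71), CRNDE (0.71), JPX (0.66) and ELFN1-AS1 (0.59).

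The more positive change was in PC3 for PCAT14 (-5.68), PSMB8-AS1 (-2.83), AC012531.25 (-2.81), BRINP3-DT (-2.01), LINC02965 (-1.56), LINC02067 (-1.56), PART1 (-1.53), FAM111A-DT (-1.49), FLJ20021 (-1.36), CTC-459F4.1 (-1.34), MIR503HG (-1.25), BISPR (-1.15), TP53TG1 (-0.97), PAXIP1-DT (-0.96), LINC00662 (-0.90), ZNF674-AS1 (-0.62), MIRLET7IHG (-0.55) and NUP50-DT (-0.55). The difference lost its call under at least 1 alternative for BISPR, ELFN1-AS1, ERVE-1, LINC01588, LINC02965, MIRLET7IHG, LINC00261 and MIR503HG. MIR4458HG, outside this list, also differed (-2.32). Many of these members are at the threshold in 1 line only, so that the change in the other line rests on few counts.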

How the results depend on the processing

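Over 148 results and 2255 alternative values, 2063 kept their direction and their side of the threshold, 143 lost a call, 25 gained one and 24 turned sign; 91 of 121 calls held in every alternative run.

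Counts of calls. With the replicate block, 137 members passed in PC3, 110 in VCaP, 80 between the lines and 38 the same way in both. In VCaP the same-numbered libraries correlated at 0.18, -0.05 and 0.41, so there the number is only shared, and 2 of 6 libraries correlated best with their own number (4 of 6 in PC3). Leaving out 1 library gave 46 to 95 calls in PC3 (57 without NSI replicate 3 and 54 without siFOXA1 replicate 3), 71 to 86 in VCaP, 45 to 65 between the lines and 11 to 26 the same way in both (13 without PC3 NSI replicate 3). A member threshold of 2 CPM gave 156, 175, 120 and 32 in that order, and one of 10 CPM gave 50, 53, 37 and 11. An adjusted p under 0.01 gave 38, 53, 38 and 7, and a log2 fold change of at least 1 gave 14, 30, 34 and 3. Counting members only where they reach the threshold gave 10 between the lines and 6 the same way. No share of all genes is given for the counts of this paragraph.

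Medians. The PC3 median of 0.0422 was 0.1004 with library size alone, 0.0108 with no filter, 0.0099 with unrounded counts, 0.1067 at 2 CPM, 0.0008 at 10 CPM, 0.1468 over members with under 10% shared exons and 0.0063 over those at the threshold, and leaving out 1 library gave -0.0076 to 0.0650. The VCaP median of 0.0716 was 0.1199 with upper-quartile factors, 0.0895 over 12 libraries, 0.0571 with library size alone, 0.0861 at 2 CPM, -0.0169 at 10 CPM and 0.0372 at the threshold, and leaving out 1 library gave 0.0505 to 0.0833. Fewer or other members enter by construction in the subsets; for the other settings the cause was not tested.

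Signs. No called change turned sign. Among changes that did not pass, NORAD in PC3 (0.01) was -0.0106 with DESeq2's Wald test, -0.0106 with its size factors, -0.0211 with no filter and -0.0206 with unrounded counts, and leaving out 1 library gave -0.097 to 0.1059. For MIRLET7IHG in VCaP it was 0.0203 with upper-quartile factors and 0.0049 over 12 libraries. Leaving out 1 library gave -0.1454 to 0.0542 for MIRLET7IHG in VCaP, -0.0133 to 0.0911 for FTX and -0.116 to 0.3104 for ST3GAL1-DT in PC3, and, in VCaP, -0.2396 to 0.0428 for PWAR6, -0.1194 to 0.1608 for SCARNA2, -0.056 to 0.0594 for RMRP and -0.223 to 0.1224 for RNU11.

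Depth limits the precision of members at the threshold in the other line only, since at levels far under it a library of these totals holds few counts.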
